A study of Mus musculus with 4 samples.

Results

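The endothelial genes described here are 38 genes that mark the cells lining blood vessels, picked by name and looked up by symbol in the tables of heart and of tibialis anterior (TA), a fast skeletal muscle of the lower leg. All 38 were listed in both tissues, out of 10791 symbols listed for heart, 10352 for TA and 9906 for both. The samples came from 10-week-old male C57BL/6J mice of a commercial supplier, with no treatment or altered allele given, and the number of animals per library is not stated in the labels. Both tissues were frozen pieces of whole muscle, so endothelial cells were 1 cell type among several. From each tissue 1 library of ribosome footprints (RPF, mRNA left undigested by RNase I because a ribosome covered it) and 1 library of RNA depleted of ribosomal RNA were sequenced. The 4 groups, heart RPF, heart RNA, TA RPF and TA RNA, therefore held 1 library each, so differences had no replicate check and no test was possible.

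Endothelial cells hold vessels closed through adherens and tight junctions, sense growth factors such as VEGF and the angiopoietins through receptor tyrosine kinases, and keep their identity through SOX-F and ETS transcription factors. They also release nitric oxide to relax vessels, carry lipoprotein lipase on the capillary wall to supply fatty acids, and make von Willebrand factor for haemostasis. Heart muscle burns fatty acids without pause and is densely supplied with capillaries, while fast skeletal muscle is supplied more sparsely.

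Values are RPM (reads scaled by the authors to the size of each library) for the coding sequence unless a UTR is named. Recovered from the size of the steps between low values, the heart libraries held about 28116579 coding reads of RPF and 9283696 of RNA, and the TA libraries about 28517161 of RPF and 16049354 of RNA. The least-covered endothelial genes still had 97 reads in heart RPF (Ecscr), 38 in heart RNA (Plvap), 67 in TA RPF (Ecscr) and 22 in TA RNA (Sox17). The 50 most abundant genes took 44.8% of heart RPF, 36.8% of heart RNA, 61.6% of TA RPF and 58.1% of TA RNA, so a few genes took more of each TA library. A gene was called higher or lower at a difference of at least 2-fold. The bracketed ranges are 95% counting intervals and cover counting error only, not the spread between animals. Cardiac muscle genes summed to 99666 RPM in heart RNA and 246 RPM in TA RNA, and fast skeletal muscle genes to 182 RPM in heart RNA and 178260 RPM in TA RNA, as the labels of the tissues say.

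Together the 38 genes took 0.328% of coding reads in heart RPF and 0.369% in heart RNA, against 0.189% of TA RPF reads and 0.115% of TA RNA reads. Their share was thus higher in heart than in TA in both kinds of library, with a wider gap in RNA than in RPF. Levels between genes were compared per kilobase (kb) of coding sequence. Aqp1, the water channel of capillary endothelium, was the most abundant in all 4 libraries, with 369 RPM per kb in heart RPF and 199 in heart RNA, and 500.0 RPM per kb in TA footprints and 164 in TA RNA. In heart RNA it was followed by Gpr116, an adhesion G-protein-coupled receptor also known as Adgrf5, at 137 RPM per kb, and by Cdh5 (VE-cadherin, the adherens junction protein of endothelium) at 93.8 RPM per kb. In TA RNA the next were Tspan7, a tetraspanin membrane protein, at 55.4 RPM per kb and Gpr116 at 46.7 RPM per kb. At the low end, Plvap had 3.10 RPM per kb in heart RNA and 4.26 in TA RNA, and the transcription factor Sox17 had 4.70 in heart RNA and 1.09 in TA RNA.

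**Figure D1:**
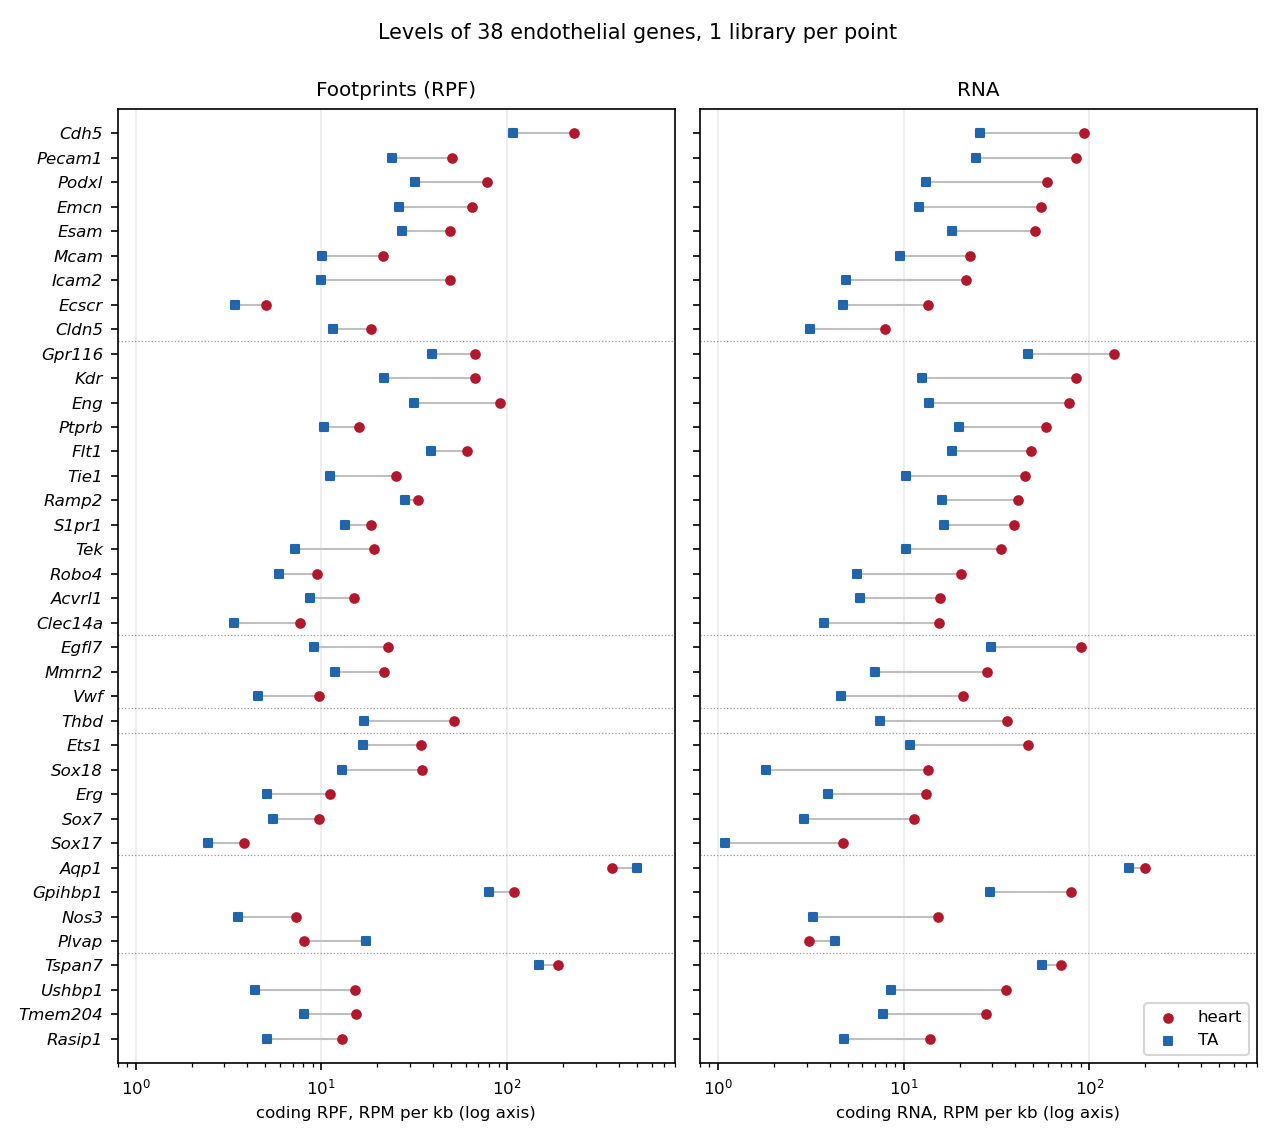
Levels of the 38 endothelial genes in RPM per kb of coding sequence on log axes, RPF on the left and RNA on the right, with heart and TA as separate symbols and 1 library per symbol. Aqp1 lies at the top in each library, from 164 RPM per kb in TA RNA to 500.0 in TA RPF, and in RNA the heart symbol lies to the right of the TA symbol for every gene but Plvap.

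The heart and TA RNA libraries show how endothelial transcripts are spread over a heart and a fast limb muscle. RNA of 35 of the 38 genes was called higher in heart, against 35.0% of the 9843 genes compared, and none was called lower, against 3.88% of genes. The median log2 ratio of heart over TA was 1.82 for the endothelial genes and 0.70 for all genes. The genes with the smallest ratios were Tspan7, Aqp1 and Plvap. In whole tissue, fewer endothelial cells and less of an RNA per endothelial cell cannot be told apart. Relative to the median gene of these libraries, 21 endothelial genes were called higher in heart RNA, against 13.5% of genes, and 1, Plvap, was called lower, against 10.4%, with a median of 1.12.

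RNA of all 9 junction and adhesion genes was called higher in heart, with log2 ratios between 1.26 for Mcam and 2.17 for Emcn. Cdh5 had 220.4 RPM in heart RNA and 60.5 RPM in TA RNA, a 3.64-fold difference. Pecam1 (CD31, an adhesion protein of endothelial cell contacts) had 183 RPM in heart RNA and 52.5 RPM in TA RNA, 3.48-fold. Icam2, an adhesion molecule bound by leukocytes, had 18.0 RPM in heart RNA and 4.04 RPM in TA RNA, 4.37-fold. Each of these genes thus stood above 3-fold. The melanoma cell adhesion molecule Mcam had 44.3 RPM in heart RNA and 18.4 RPM in TA RNA, and Ecscr, a membrane protein of endothelial migration, had 9.31 RPM in heart RNA and 3.23 RPM in TA RNA. Cldn5 (the tight junction protein of endothelium), Esam, and the sialomucins Emcn and Podxl made up the rest of the group, and these also lay above 2-fold in RNA.

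RNA of all 12 receptor and signalling genes was called higher in heart. Kdr (VEGFR2, the main VEGF receptor) had 343 RPM in heart RNA and 50.9 RPM in TA RNA, 6.72-fold higher in heart (log2 2.75, 2.64 to 2.86). Eng (endoglin, a co-receptor for BMP9 and BMP10) had 149 RPM in heart RNA and 26.4 RPM in TA RNA, 5.64-fold (log2 2.49, 2.34 to 2.66). Both therefore stood well apart from Flt1, the VEGF receptor that acts mainly as a decoy, which had 195 RPM in heart RNA and 72.4 RPM in TA RNA, 2.69-fold (log2 1.43, 1.32 to 1.54). The counting interval of Flt1 did not overlap that of Kdr. Gpr116 had 552 RPM in heart RNA and 189 RPM in TA RNA, and Ptprb (VE-PTP, a phosphatase that restrains Tek) had 351 RPM in heart RNA and 119.7 RPM in TA RNA. Ramp2, which turns the calcitonin-like receptor into an adrenomedullin receptor, had 23.3 RPM in heart RNA and 9.13 RPM in TA RNA. Tek and Tie1 (the angiopoietin receptor and its partner), Acvrl1 (the ALK1 receptor that signals with endoglin), S1pr1, Robo4 and Clec14a lay between a log2 ratio of 1.25, for S1pr1, and 2.13, for Tie1.

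The transcription factors and the secreted genes followed the same direction. Sox18, a SOX-F factor of vascular and lymphatic development, had 15.3 RPM in heart RNA and 2.05 RPM in TA RNA, 7.16-fold higher in heart (log2 2.84, 2.35 to 3.49), the largest RNA ratio of the 38. Its TA value rested on 33 reads, which the width of the interval reflects. Sox17, which acts in arterial endothelium, had 5.89 RPM in heart RNA and 1.37 RPM in TA RNA, and Sox7, Erg and Ets1 were also called higher. All 3 secreted and matrix genes were called higher in heart RNA: Vwf (von Willebrand factor) with 176 RPM in heart and 38.7 RPM in TA, Egfl7 (a matrix protein of growing vessels) with 74.5 RPM in heart and 24.5 RPM in TA, and Mmrn2 with 79.2 RPM in heart and 19.7 RPM in TA. Thbd (thrombomodulin, which turns thrombin towards anticoagulation) had 62.2 RPM in heart RNA and 12.9 RPM in TA RNA.

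The 3 genes that did not reach 2-fold in RNA came from the transport, permeability and tetraspanin genes. Plvap, which forms the diaphragms of fenestrae and caveolae, had 4.07 RPM in heart RNA and 5.59 RPM in TA RNA, a log2 ratio of -0.45 (-1.05 to 0.10). Aqp1 had 160.2 RPM in heart RNA and 132 RPM in TA RNA, 0.28 (0.19 to 0.38), which becomes -0.41 relative to the median gene. Tspan7 had 52.3 RPM in heart RNA and 41.2 RPM in TA RNA, 0.34 (0.17 to 0.51), which becomes -0.35 relative to the median gene. In the same role group as Plvap and Aqp1, Nos3 (endothelial nitric oxide synthase) had 55.0 RPM in heart RNA and 11.7 RPM in TA RNA, 4.65-fold higher, and Gpihbp1, the capillary anchor of lipoprotein lipase, had 54.4 RPM in heart RNA and 19.8 RPM in TA RNA, 2.74-fold. Listed marker genes of several other non-muscle cells moved with this result: summed RNA was 430 RPM in heart and 95.0 RPM in TA for macrophage and leukocyte genes (11 of 11 called higher), 1866 RPM in heart and 887 RPM in TA for smooth muscle and pericyte genes (6 of 9), and 12485 RPM in heart and 472 RPM in TA for red cell genes (2 of 2). Fibroblast genes did not move with it, with 1602 RPM in heart and 1462 RPM in TA, 2 of 7 called higher and a median log2 ratio of 0.60 against 0.70 for all genes. Platelets also hold Vwf and Pecam1, and listed platelet genes summed to 25.8 RPM in heart RNA over 4 genes and 2.80 RPM in TA RNA over 2. These sums run over the genes listed in each tissue, and the calls over genes listed in both. Some markers, such as Myh11, Tcf21 and Fcer1g in TA, were not listed and so have no value there. The part of the marker genes in the result was not tested.

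Footprints of the same genes differed less between the tissues than their RNA did. RPF of 20 of the 38 genes was called higher in heart, against 30.1% of the 9843 genes, and 1, Plvap, was called lower, against 5.06%. The median log2 ratio of heart RPF over TA RPF was 1.03 for the endothelial genes and 0.60 for all genes. The 20 genes higher in RPF were also higher in RNA, and in 36 of the 38 the RNA ratio exceeded the RPF ratio, the exceptions being Icam2 and Tspan7. These ratios were not centred. The median gene had an RPF over RNA of 0.737 in heart and 0.835 in TA, so the scale itself favoured the RNA ratio. With RPF over RNA centred on the median gene of each tissue, it was lower in heart in 36 of the 38, against 49.4% of all genes. Relative to the median gene, 4 endothelial genes were called higher in heart RPF, against 11.9% of genes, and 2, Plvap and Aqp1, were called lower, against 12.0%, with a median of 0.43. In RPF, on that scale, the count of higher calls was near that of all genes.

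Icam2 had 41.0 RPM in heart RPF and 8.22 RPM in TA RPF, 4.93-fold higher in heart (log2 2.30, 2.11 to 2.52), the largest RPF ratio of the 38. Ushbp1, named for binding the Usher protein harmonin, had 30.8 RPM in heart RPF and 8.99 RPM in TA RPF, 3.39-fold (log2 1.76, 1.57 to 1.98). Its RNA was 72.0 RPM in heart and 17.4 RPM in TA. In both genes the RPF ratio was thus near the RNA ratio. Kdr had 269 RPM in heart RPF and 87.8 RPM in TA RPF, 3.07-fold, well short of the 6.72-fold in RNA. Thbd had 89.7 RPM in heart RPF and 29.4 RPM in TA RPF, and Eng had 175 RPM in heart RPF and 60.9 RPM in TA RPF. These 5 genes had the highest RPF ratios of the 38.

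At the other end, Plvap had 10.5 RPM in heart RPF and 22.9 RPM in TA RPF, a log2 ratio of -1.12 (-1.33 to -0.92). Aqp1 had 296 RPM in heart RPF and 402 RPM in TA RPF, -0.44 (-0.48 to -0.40), while its RNA ratio was above 0. Ramp2 had 18.8 RPM in heart RPF and 15.9 RPM in TA RPF, 0.24 (0.05 to 0.42), which becomes -0.36 relative to the median gene. Tspan7 had 140.0 RPM in heart RPF and 109.9 RPM in TA RPF, nearly the same ratio as in its RNA. Across the 38 genes, which share these 4 libraries, RNA and RPF ratios had a Pearson r of 0.82 and a Spearman rho of 0.74. Over all 9843 genes these were 0.88 and 0.79, somewhat higher. The order of the genes was thus largely shared while the size of the ratios was not.

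**Figure D2:**
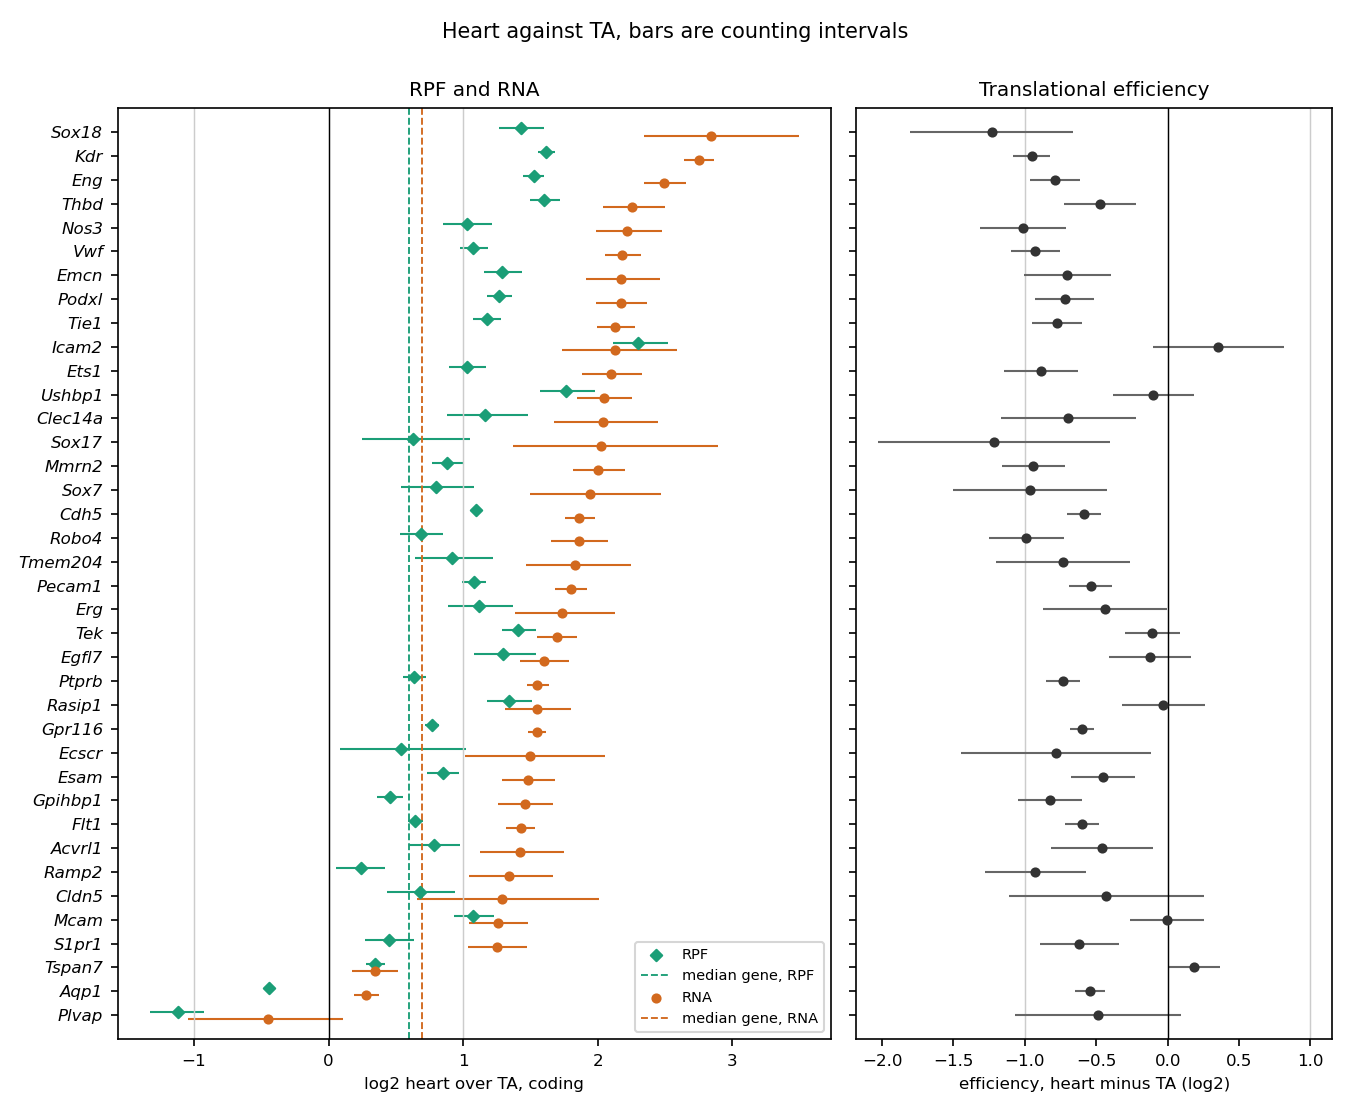
Log2 ratio of heart over TA for RPF and RNA of each endothelial gene (left) and the difference in translational efficiency, heart minus TA (right), with 95% counting intervals as bars and dashed lines at the median of all genes. RNA points lie to the right of RPF points for 36 of 38 genes, and the efficiency differences lie between -1.23 for Sox18 and 0.36 for Icam2.

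Translational efficiency was taken as log2 of RPF over RNA, relative to the median gene of the tissue, so 0 is a gene with the usual number of footprints for its RNA. In heart the endothelial mRNAs lay near the middle: 7 of the 38 were called above the median gene, against 16.0% of 10680 genes, and 2, Egfl7 and Ptprb, below, against 17.8%, with a median of 0.17. In TA they carried more footprints than usual: 18 were called above, against 15.4% of 10029 genes, and 1, Egfl7, below, against 18.7%, with a median of 0.86. Counting those above the median gene at all, there were 23 of 38 in heart and 32 of 38 in TA. The 7 called above in heart were all called above in TA too.

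The order of the genes by efficiency was much the same in both tissues. Over the 38 genes, efficiency in heart and in TA had a Pearson r of 0.92 and a Spearman rho of 0.91, close to the 0.88 and 0.87 over all 9635 genes. Cdh5 had 538 RPM RPF for 220.4 RPM RNA in heart and 252 RPM RPF for 60.5 RPM RNA in TA, efficiencies of 1.73 in heart and 2.32 in TA, above 95.1% of genes in heart and 98.6% in TA. Sox18 had 39.3 RPM RPF for 15.3 RPM RNA in heart and 14.6 RPM RPF for 2.05 RPM RNA in TA, efficiencies of 1.79 (1.55 to 2.06) in heart and 3.03 (2.58 to 3.65) in TA. Plvap, with efficiencies of 1.79 in heart and 2.28 in TA, Tspan7, with 1.86 in heart and 1.67 in TA, Cldn5, with 1.66 in heart and 2.09 in TA, Icam2, with 1.62 in heart and 1.27 in TA, and Aqp1, with 1.33 in heart and 1.87 in TA, were the others called above in both tissues.

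The least efficient were a secreted protein and a receptor phosphatase. Egfl7 had 18.9 RPM RPF for 74.5 RPM RNA in heart and 7.63 RPM RPF for 24.5 RPM RNA in TA, efficiencies of -1.53 (-1.70 to -1.37) in heart and -1.41 (-1.67 to -1.18) in TA. Ptprb had 95.9 RPM RPF for 351 RPM RNA in heart and 61.6 RPM RPF for 119.7 RPM RNA in TA, efficiencies of -1.43 in heart and -0.70 in TA. Ecscr had 3.44 RPM RPF for 9.31 RPM RNA in heart and 2.34 RPM RPF for 3.23 RPM RNA in TA, efficiencies of -0.97 in heart and -0.19 in TA. Ushbp1 had efficiencies of -0.79 in heart and -0.68 in TA. Longer coding sequences had lower efficiencies among the endothelial genes, with a Spearman rho of -0.36 in heart and -0.36 in TA (n = 38), as among all genes, with -0.39 in heart and -0.35 in TA. The median coding length of the endothelial genes, 1479 nt, was close to that of all genes, 1431 nt.

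By role, the median efficiency was highest for the 4 genes of vessel tone, transport and permeability, 1.11 in heart and 1.79 in TA. These 4 were widely spread, from -0.62 for Nos3 to 1.79 for Plvap in heart. Thbd, the single coagulation gene, had 0.97 in heart and 1.44 in TA, and the 9 junction and adhesion genes had medians of 0.68 in heart and 1.27 in TA. The 5 transcription factors had medians of 0.19 in heart and 1.17 in TA. The 12 receptors had medians of -0.38 in heart and 0.36 in TA, and the 3 secreted and matrix genes -0.67 in heart and 0.26 in TA. The remaining 4 genes, of other roles, had medians of -0.04 in heart and 0.34 in TA. The receptors called above in TA were Eng at 1.46, Flt1 at 1.36, Ramp2 at 1.05 and Kdr at 1.05, and no receptor was called above in heart.

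**Figure D3:**
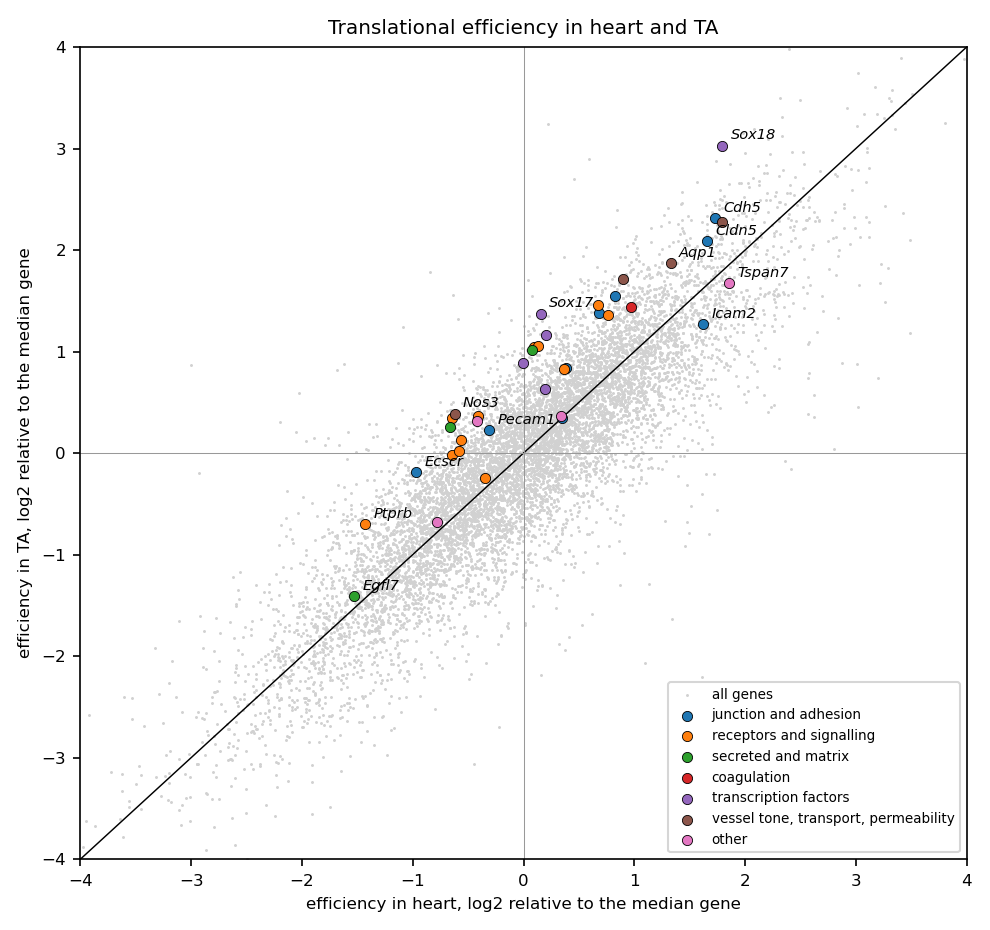
Translational efficiency in heart (horizontal axis) against TA (vertical axis), both as log2 relative to the median gene, for all genes (grey) and for the endothelial genes coloured by role, with the diagonal marking equal efficiency. All endothelial genes but Icam2 and Tspan7 lie above the diagonal, from Egfl7 at -1.53 in heart and -1.41 in TA to Sox18 at 1.79 in heart and 3.03 in TA.

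The difference in efficiency between the tissues had the same sign in nearly all endothelial genes. It was negative, lower in heart than in TA, in 36 of 38, against 49.4% of all genes, and the counting interval lay wholly below 0 in 29 and wholly above 0 in 1, Tspan7. The median difference was -0.66 for the endothelial genes and 0.01 for all genes. Most of the differences were under 2-fold: 3 genes were called lower, against 2.34% of the 9635 genes, and none was called higher, against 4.07%. The difference combines all 4 libraries, so a gene with a high RNA ratio tends to have a low value by construction. Among the 1059 genes whose RNA ratio lay between the quartiles of the endothelial genes, the median difference was -0.24.

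The 3 genes called lower were Sox18, with -1.23 (-1.80 to -0.66), Sox17, with -1.22 (-2.03 to -0.41), and Nos3, with -1.01 (-1.31 to -0.71). Sox17 had 4.82 RPM RPF for 5.89 RPM RNA in heart and 3.08 RPM RPF for 1.37 RPM RNA in TA. Nos3 had 26.3 RPM RPF for 55.0 RPM RNA in heart and 12.8 RPM RPF for 11.7 RPM RNA in TA. The upper ends of the intervals of Sox18, Sox17 and Nos3 lay above -1, so these calls are not firm at this depth, and the SOX-F genes rested on few TA RNA reads. Robo4, at -0.99, Sox7, at -0.96, and Kdr, at -0.95 (-1.08 to -0.82), lay just short of 2-fold.

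Icam2 and Tspan7 were the exceptions, with differences of 0.36 (-0.10 to 0.82) and 0.19 (0.00 to 0.37). Mcam, at -0.01 (-0.26 to 0.25), and Rasip1, a RAS-binding regulator of lumen formation, at -0.03 (-0.32 to 0.26), had almost equal efficiencies in both tissues. Lower efficiencies in heart were also found for listed genes of other vascular cells, immune cells and fibroblasts. The median difference was -0.65 for 10 further endothelial markers, of which 8 were negative, -0.57 for 9 smooth muscle and pericyte genes, of which 8 were negative, -0.54 for 11 macrophage and leukocyte genes, of which 10 were negative, and -0.21 for 7 fibroblast genes, of which 6 were negative. Of the 2 red cell genes 1 was negative, with a median of 0.14. All 6 fast skeletal muscle genes compared were negative, with a median of -2.41, and 3 of 6 cardiac muscle genes, with a median of 0.02. All 6 lymphatic and all 3 endocardial genes were negative too, as was 1 of 2 platelet genes. Outside the vascular, immune and fibroblast lists, only the fast skeletal muscle genes all shared the direction. That list summed to 50.1 RPM RPF and 182 RPM RNA in heart, against 260862 RPM RPF and 178260 RPM RNA in TA. The part of these lists in the result was not tested.

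Footprints in the 5'UTR, the stretch of mRNA ahead of the coding sequence where short upstream frames can be read, took 9.25% of the endothelial genes' RPF in heart and 4.71% in TA, against 2.72% in heart and 1.34% in TA for all genes. Of the endothelial genes' RNA reads, 2.56% in heart and 2.28% in TA fell there. Pecam1 alone held 57.3% of the endothelial 5'UTR footprints in heart and 47.1% in TA, and without it the 5'UTR share was 4.31% in heart and 2.61% in TA. In the 3'UTR, footprints were rare, 0.487% in heart and 0.419% in TA, where RNA reads made up 34.1% in heart and 41.6% in TA.

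Per nt, 35 of the 38 genes had a 5'UTR of at least 30 nt and could be compared; Robo4, Nos3 and Gpihbp1 had shorter ones. The 5'UTR footprint density was called above the coding density in 2 genes in heart, against 8.82% of 9874 genes, and below it in 23, against 59.5%. In TA it was called above in 2, against 7.25% of 9267 genes, and below in 25, against 62.8%. Of the endothelial genes compared, 5 in heart and 4 in TA had 0 RPM of 5'UTR footprints. Their ratios rested on the 0.1 RPM added to each value, and all were called below. The median log2 ratios, -1.45 in heart and -1.57 in TA, lay near those of all genes, -1.47 in heart and -1.65 in TA. By the median of this footprint ratio the endothelial genes were thus close to the background, and Pecam1 stood apart within the group. The same ratio in RNA had medians of -1.37 in heart and -1.42 in TA. For all genes the RNA medians were -1.79 in heart and -1.62 in TA.

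Pecam1 had 192 RPM of RPF in a 229 nt 5'UTR and 109 RPM of RPF in 2145 nt of coding sequence in heart, and 44.2 RPM in the 5'UTR and 51.3 RPM in the coding sequence in TA. The 5'UTR density was 16.6 times the coding density in heart and 8.07 times in TA, which put Pecam1 above 99.8% of genes in heart and 99.5% in TA. The heart value rested on 5417 footprints in the 5'UTR and 3064 in the coding sequence, and the TA value on 1263 in the 5'UTR and 1466 in the coding sequence. The RNA library did not show this excess: 14.6 RPM of heart RNA and 3.79 RPM of TA RNA lay in the 5'UTR, densities of 0.75 times the coding density in heart and 0.69 times in TA. Of all Pecam1 footprints in the 5'UTR and coding sequence, 63.9% lay in the 5'UTR in heart and 46.3% in TA. With 5'UTR and coding reads counted together, the efficiency of Pecam1 was 1.00 in heart and 1.01 in TA, a difference of -0.01, where coding reads alone gave -0.31 in heart and 0.23 in TA, a difference of -0.54.

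The other genes with a dense 5'UTR had far fewer footprints there. Tmem204, a membrane protein also called CLP24, had 19.5 RPM of RPF in a 571 nt 5'UTR in heart and 6.75 RPM in TA, 2.22 times the coding density in heart and 1.47 times in TA. Ushbp1 had 4.29 RPM in the 5'UTR in heart and 1.71 RPM in TA, 1.77 times in heart and 2.47 times in TA. Vwf had 2.62 RPM in heart and 1.57 RPM in TA, 1.19 times in heart and 1.53 times in TA. By these values the 5'UTRs of Tmem204, Ushbp1 and Vwf had at least the footprint density of the coding sequence in both tissues. The heart interval of Vwf spanned equality (log2 0.25, -0.16 to 0.53). In RNA the 5'UTR density was 0.83 times the coding density in heart and 1.13 times in TA for Ushbp1. For Vwf it was 0.78 times in heart and 1.17 times in TA, and for Tmem204 1.28 times in TA. Kdr had 23.6 RPM in heart and 4.20 RPM in TA, 1.37 times in heart and 0.76 times in TA, and Eng had 29.2 RPM in heart and 6.54 RPM in TA, 0.88 times in heart and 0.58 times in TA. In heart RNA the 5'UTR had 1.03 times the coding density in Tmem204, 0.34 times in Kdr and 0.27 times in Eng. Aqp1 marked the other extreme, with 0.81 RPM in the 5'UTR in heart and 0.98 RPM in TA, 0.013 times its coding density in heart and 0.011 times in TA.

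**Figure D4:**
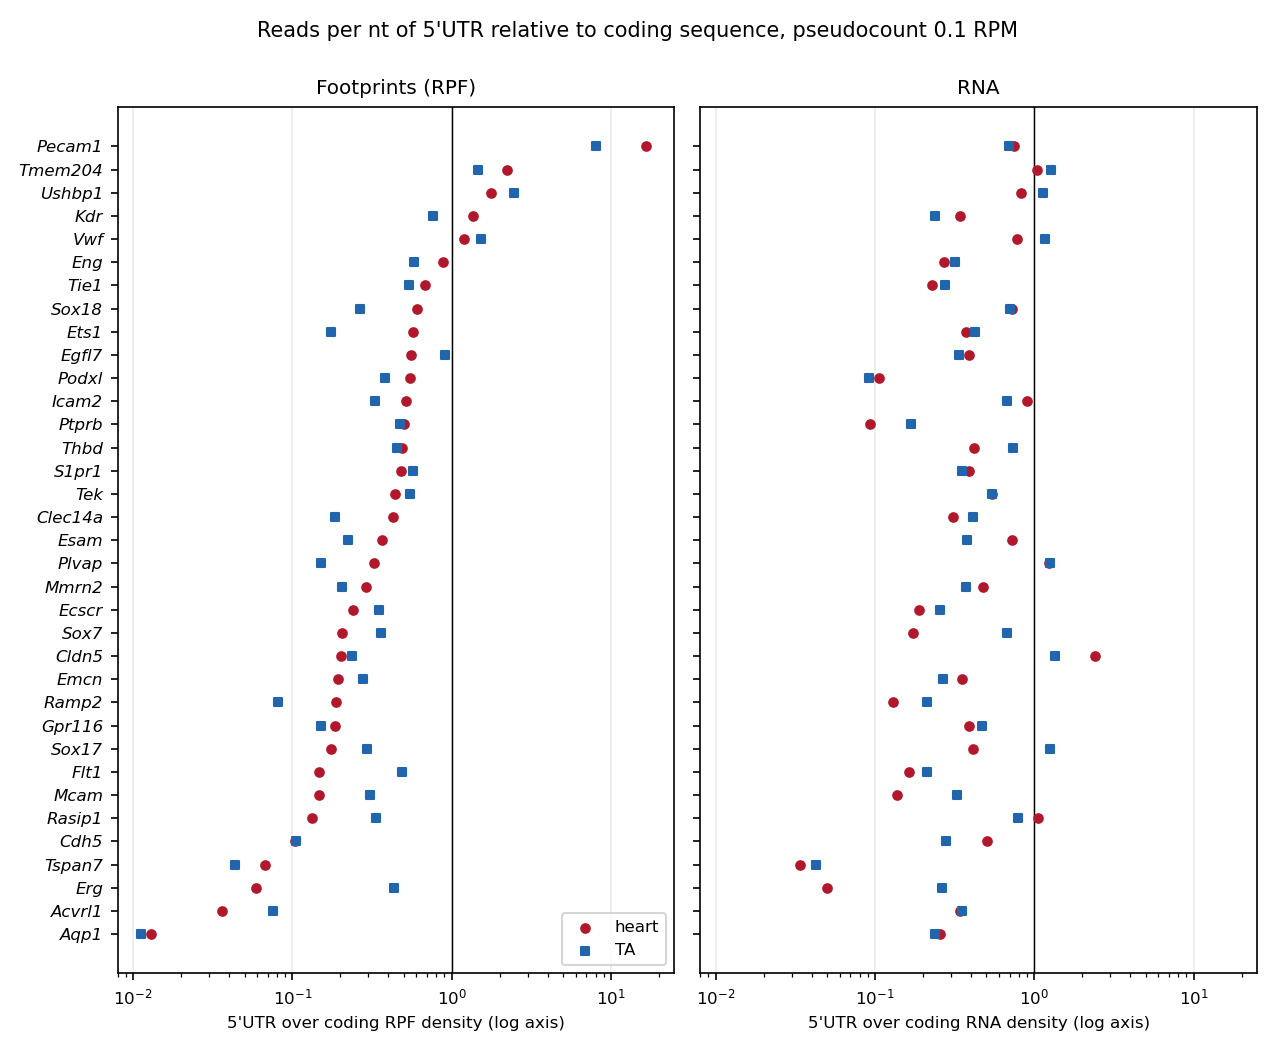
Reads per nt of 5'UTR divided by reads per nt of coding sequence for 35 endothelial genes on log axes, RPF on the left and RNA on the right, heart and TA as separate symbols, with 0.1 RPM added to each value. Pecam1 lies far to the right in RPF, at 16.6 in heart and 8.07 in TA, but not in RNA, at 0.75 in heart and 0.69 in TA.

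The letters of these 5'UTRs were read from GENCODE M21 transcripts on the mouse build GRCm38, since the counted transcript models are of another build. The sequences set upstream frames of 4 genes beside annotated starts. Capitals mark the opening ATG and, where a frame is shown whole, its stop codon. The Tmem204 stretch also holds another upstream ATG, 102 bases before the annotated start, left in lower case. The Pecam1 frame opens 87 bases upstream of the annotated start and runs for 6 codons, at chr11:106715119-106715139 on the minus strand in exon 1. The Tmem204 frame, 1 of 6 upstream ATGs in its 5'UTR, opens 112 bases upstream and also runs for 6 codons, at chr17:25080635-25080655 on the minus strand. The Vwf frame, 1 of 3 upstream ATGs in its 5'UTR, opens 90 bases upstream and has 2 codons, at chr6:125553110-125553118 on the plus strand, and the Eng frame opens 333 bases upstream and has 2 codons, at chr2:32646625-32646633 on the plus strand. Kdr, Ushbp1, Cdh5 and Aqp1 had no ATG in the 5'UTR read here, so their annotated starts alone are shown. That 5'UTR was 59 nt for Aqp1 against 192 nt in the deposited table, and 148 nt for Ushbp1 against 164 nt. Part of the counted 5'UTR of these genes was therefore not searched.
Pecam1 upstream frame: tgaggcATGgccggaagacagaacTAG
Tmem204 upstream frame: ccaaggATGagtgctgatgtcctcTAG
Vwf upstream frame: aggaaaATGgctTAG
Eng upstream frame: ggctggATGagcTGA
Pecam1 annotated start: gcagacaagATGc
Kdr annotated start: aggtgcaggATGg
Ushbp1 annotated start: acagaggcaATGa
Cdh5 annotated start: ccacgaaggATGc
Aqp1 annotated start: cctgccagcATGg

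The deposited values give no position within a 5'UTR, so the footprints of Pecam1 cannot be placed on its upstream frame. The 5'UTR read here was 207 nt for Pecam1 against 229 nt in the deposited table, and only 11 of the 34 genes whose 5'UTR could be searched had equal lengths in both. An ATG on the mRNA strand of the 5'UTR was found in 18 of the 34, 52.9%, against 54.5% of 9616 genes. A frame that ended before the annotated start was found in 52.9% of the endothelial genes and 46.7% of genes. An upstream ATG with A or G 3 bases before it and G right after it was found in 32.4% of the endothelial genes and 18.9% of genes, and an annotated start with those neighbours in 32.4% of the endothelial genes and 44.1% of genes. The 5'UTRs searched had a median of 253 nt in the endothelial genes and 196 nt in all genes. A longer 5'UTR has more room for an ATG, and the shares were not adjusted for length. These shares are descriptions of the letters, and no use of any ATG follows from them.

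Genes with an upstream ATG had denser 5'UTRs, in the endothelial set as in all genes. The median log2 ratio of 5'UTR over coding footprint density was -1.05 with an upstream ATG and -2.04 without in heart, and -1.11 with and -2.00 without in TA. Over all genes it was -1.04 with and -2.03 without in heart, and -1.20 with and -2.25 without in TA. Coding efficiency differed the other way: the endothelial median was -0.38 with an upstream ATG and 0.37 without in heart, and 0.29 with and 1.11 without in TA. Over all genes these medians were -0.31 with and 0.27 without in heart, and -0.31 with and 0.28 without in TA. Coding footprints are the denominator of the 5'UTR ratio and the numerator of efficiency, so opposite directions are partly built in. An effect of upstream ATGs on efficiency was not tested. Kdr and Ushbp1, with no upstream ATG in the sequence read here, lay well above the median of such genes in 5'UTR density.

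Among 63 further genes of the same pathways, 57 could be compared between the tissues. RNA was called higher in heart for 47, against 35.0% of all genes, and lower for 1, against 3.88%, with a median log2 ratio of 1.61. RPF was called higher for 33, against 30.1% of all genes, and lower for none, against 5.06%, with a median of 1.19. Lpl (lipoprotein lipase, which muscle cells make and Gpihbp1 holds on the capillary wall) had 3857 RPM in heart RNA and 222 RPM in TA RNA, a log2 ratio of 4.12, set beside 1.46 for Gpihbp1. Hey2, a Notch target, had 6.96 RPM in heart RNA and 0.75 RPM in TA RNA, 3.05. The lowest was Mef2c, a MADS-box factor of muscle as well as endothelium, with 43.2 RPM in heart RNA and 215 RPM in TA RNA, -2.31, followed by Edn1 (endothelin-1), with 1.50 RPM in heart RNA and 1.12 RPM in TA RNA, 0.39.

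In efficiency, 54 of these pathway genes could be compared, and 42 were lower in heart than in TA at any size, against 49.4% of all genes, with a median difference of -0.31. None was called lower, against 2.34% of all genes, and 3 were called higher in heart, against 4.07%, shares near the background: Mef2c with 2.97, Vegfa with 1.07 and Edn1 with 1.07. Vegfa, the ligand of Kdr and Flt1 that muscle cells themselves secrete, had 84.1 RPM RPF for 122 RPM RNA in heart and 34.0 RPM RPF for 91.8 RPM RNA in TA. For Vegfa the RPF ratio, 1.30, therefore exceeded the RNA ratio, 0.42, the reverse of its receptor Kdr.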

How the data were processed

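The endothelial genes and the marker and pathway lists were chosen with earlier results of these data known. Per the labels' protocols, 1 lysate per tissue gave both libraries: total RNA before digestion, and RPF after RNase I, cut from a gel at fragment sizes of ribosome footprints. Per the labels, RefSeq transcripts were the mapping target, and the submitters' processing notes name Bowtie and mm9. Handling of multiply mapped reads and of strand: not given in the sources used here.

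Values were deposited as RPM per coding sequence, 5'UTR and 3'UTR, per the file headers, not divided by length. Low values were multiples of 1 read within the rounding of 0.005 RPM in 100% of cases in each library (8204 to 15302 values), giving 0.0354, 0.107, 0.035 and 0.0621 RPM per read in heart RPF, heart RNA, TA RPF and TA RNA. The rounding is a sizeable part of the RPF step, so RPF reads are less certain. No count test could be fitted to these reads, as single libraries leave nothing from which to estimate the spread. The tables of the tissues were made separately.

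For efficiency, 0.1 RPM was added to RPF and RNA, the log2 ratio taken, and the median of the genes that reached 1 RPM of RNA subtracted. Tissue ratios used the same pseudocount, mean RNA of at least 1 RPM and no centring. Values are on this scale, which understates changes of low genes. Intervals are conditional Clopper-Pearson for ratios, and a normal approximation on the log scale for efficiency differences. Repeated symbols (5 in heart, 4 in TA) took the row with the highest coding sum. The design had left the scale open, and the minimum was applied to RPM. Named genes were the 3 highest and 3 lowest in each comparison, the 3 most abundant and the 3 densest in the 5'UTR, and others within their role group. Start sites came from the GENCODE transcript whose coding length matched. Software was Python 3.11.15, with matplotlib 3.10.9 for plots and pandas 2.3.3, numpy 2.4.6 and scipy 1.17.1 for values; the steps were tested on simulated data.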

Additional observations from a re-analysis of the deposited data

Results flagged for a closer look

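For 5 endothelial genes the coding efficiency lay below the median gene in heart and above it in TA, with counting intervals off 0 in both. The differences, heart minus TA, were -0.54 for Pecam1, -0.78 for Tie1, -0.99 for Robo4, -0.93 for Vwf and -1.01 for Nos3. With 1 library per group, none of these differences was tested. Pecam1 had efficiencies of -0.31 (-0.40 to -0.23) in heart and 0.23 (0.10 to 0.35) in TA, and its difference was -0.01 once 5'UTR reads were added to coding reads.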

How the results depend on the processing

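No paired analysis was possible because each group held 1 library and no fit was made. Of 96 counts recomputed under the alternatives, 81 stayed within 1.5 times and 15 did not. Centred on the median gene, heart RNA had 21 endothelial genes higher and 1 lower, and heart RPF 4 higher and 2 lower. Scaled without the 50 most abundant genes, RNA had 23 higher and 1 lower and RPF 4 higher. A minimum of 5 RPM left 0 lower in RPF, since Plvap was no longer among the 35 genes compared. Without centring, 10 were lower in heart efficiency and 11 in the efficiency difference, and a pseudocount of 1 left 0 lower in that difference. In 5'UTR density a pseudocount of 1 gave 4 above and 11 below in heart, and 7 above and 11 below in TA. The median efficiency difference ran from -0.84 to -0.63 over the alternatives, and the median efficiency in TA from 0.60 to 0.87. In heart the median efficiency ran from -0.27 without centring to 0.28 with the trend in coding length removed, so its sign depended on centring. Depth limits the genes with few RNA reads, Sox17, Sox18, Cldn5, Plvap and Ecscr among them.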

Other observations

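Among genes listed as further endothelial markers, Ly6e had 131 RPM RPF for 40.9 RPM RNA in heart and 58.8 RPM RPF for 9.81 RPM RNA in TA. Its efficiencies were 2.12 in heart and 2.83 in TA. Cd34, a sialomucin of endothelium and progenitor cells, had efficiencies of 0.30 in heart and 0.17 in TA, so its difference of 0.13 was above 0. The lymphatic genes, 6 of which could be compared, had a median log2 RNA ratio of 2.25. Prox1, the lymphatic regulator that heart muscle cells also express, had 72.7 RPM in heart RNA and 1.93 RPM in TA RNA, 5.16. Lyve1, the hyaluronan receptor of lymphatic endothelium and of tissue macrophages, had 17.9 RPM in heart RNA and 3.23 RPM in TA RNA, 2.43. Of 3 endocardial genes compared, Npr3 had 17.6 RPM in heart RNA and 2.05 RPM in TA RNA, 3.04, while Plxnd1 had a ratio of 2.35 and Nfatc1 of -0.24. Dll4, the Notch ligand of arterial and sprouting endothelium, had an efficiency difference of 0.25.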
